A study of Mus musculus with 6 samples.

Results

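Hormone and nuclear receptor genes with known roles in bone were followed across femur RNA-seq libraries. They are Pth1r for parathyroid hormone, Vdr for vitamin D, Esr1 and Nr3c1 for the steroids oestradiol and glucocorticoid, Thra and Thrb for thyroid hormone, Ghr for growth hormone, and Rara and Rarg for retinoic acid. They were picked by name, one receptor or receptor pair for each hormone, and make up 9 of the 22824 rows that each library lists. All 9 were found in every library. The mice were C57BL/6. The 3 OE libraries came from femurs of 9.6kb DMP1-Cre; R26-Wnt7b mice, homozygous per the labels, in which Cre switches on a Wnt7b allele at the R26 locus. The 3 Ctrl libraries came from R26-Wnt7b littermates, which carry the same allele without Cre. Cre driven by Dmp1 regulatory sequence is active in osteocytes and mature osteoblasts, so the allele is meant to be on in those cells and not in the whole femur. Age and sex are not given in the labels, and neither is a link from each library to a separate animal. The p-values below therefore reflect how far these samples vary, and part of that variation may be technical. Y-linked genes, given below, differed within each group, so as labelled the libraries of a group were not all from the same animal.

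Most of these receptors are ligand-activated transcription factors: a hormone enters the cell, binds the receptor, and the receptor binds DNA, often paired with a retinoid X receptor, and recruits coactivators or corepressors. Pth1r and Ghr sit in the cell membrane instead; the first signals through G proteins and cyclic AMP, the second through the kinase JAK2 and STAT5. In bone, parathyroid hormone and active vitamin D act on osteoblasts and osteocytes to set mineral release and matrix formation, oestrogen restrains bone loss, glucocorticoid excess suppresses bone formation, and growth hormone, thyroid hormone and retinoic acid act on growth plate and bone cells.

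Levels are in FPKM, that is, fragments scaled to transcript length and to the mapped fragments of the library, so they can be set side by side between genes. Values of a group are listed in the order of the replicate numbers, so the first Ctrl value always belongs to the library labelled Ctrl 1. FPKM totals ran from 596413 to 775942, and 11627 to 12258 rows reached 1 FPKM in a library. Absolute depth is unknown, and the step size of low values put the relative depths between 1 and 1.18. Wnt7b stood at 2.49, 0.661 and 0.295 FPKM in OE 1, 2 and 3, at 0.909 in the library labelled Ctrl 1, at 0.00833 in Ctrl 2 and listed at 0 in Ctrl 3. The library labelled Ctrl 1 thus lies within the OE range of the targeted gene, and its label is in doubt for every direction below. Cell type markers also separated Ctrl 2 and Ctrl 3 from the rest. Summed over 9 osteoblast markers, FPKM ran from 4118 to 6584 in OE and from 362 to 5752 in Ctrl, where Ctrl 2 and Ctrl 3 formed the low end. Runx2, 1 of the 9, did not share this order. It stood at 20.5, 10.2 and 11.7 FPKM in OE and at 8.87, 7.46 and 10.9 in Ctrl. Skeletal muscle markers ran from 1222 to 1543 in OE and from 215 to 1417 in Ctrl, and chondrocyte markers from 368 to 683 and from 20.3 to 447. Neutrophil markers, at 57945 to 161625 in OE and 99921 to 137576 in Ctrl, were high in every library, although the labels describe femurs cleared of marrow and cartilage. OE 3 had the highest erythroid sum, with a range of 1109 to 37978 in OE and 1338 to 7985 in Ctrl. Of these marker lists, no member with a row was at 0 in any library apart from Col1a1 and Col1a2, which are listed at 0 in both libraries numbered 1 and were left out of the osteoblast sum. The Y-linked gene Ddx3y had 3.42, 0.0183 and 14.8 FPKM in OE 1, 2 and 3, had 5.12 in the library labelled Ctrl 1, and was listed at 0 in Ctrl 2 and Ctrl 3. The Y-linked genes Uty, Kdm5d and Eif2s3y split the libraries in the same way, and did not exceed 0.0165 FPKM in OE 2, Ctrl 2 and Ctrl 3. In bulk tissue, fewer cells of a type and less RNA per cell cannot be told apart.

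Groups were compared with limma on log2(FPKM + 1) over 12177 genes (those reaching 1 FPKM in 3 or more libraries), with Benjamini-Hochberg adjustment and a threshold of 0.05. Of the 9 receptors, 8 entered the test and Thrb fell below the filter. None of the 8 was called, and neither was any other gene, so percent called was 0 in the comparison of all 6 libraries. The smallest adjusted p of all genes was 0.554. Before adjustment, 502 genes were higher and 497 lower in OE at p under 0.05, or 523 and 473 with limma without its trend, and Vdr and Rara were the 2 receptors among the 502 and 497. Of the 8 tested receptors, 7 had a positive difference, with a median of 0.37 on the log2(FPKM + 1) scale. Over all genes tested the median was -0.04 and 43.7% were positive. The receptors were chosen with earlier results of these data known, so this contrast is a description and not a test. Values of OE and Ctrl overlapped in 7 of the 9 receptors. Esr1 was higher in every OE library than in every Ctrl library, an arrangement that 4.59% of all tested genes had, and Rara was lower in every OE library, as were 8.97% of tested genes.

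**Figure D1:**
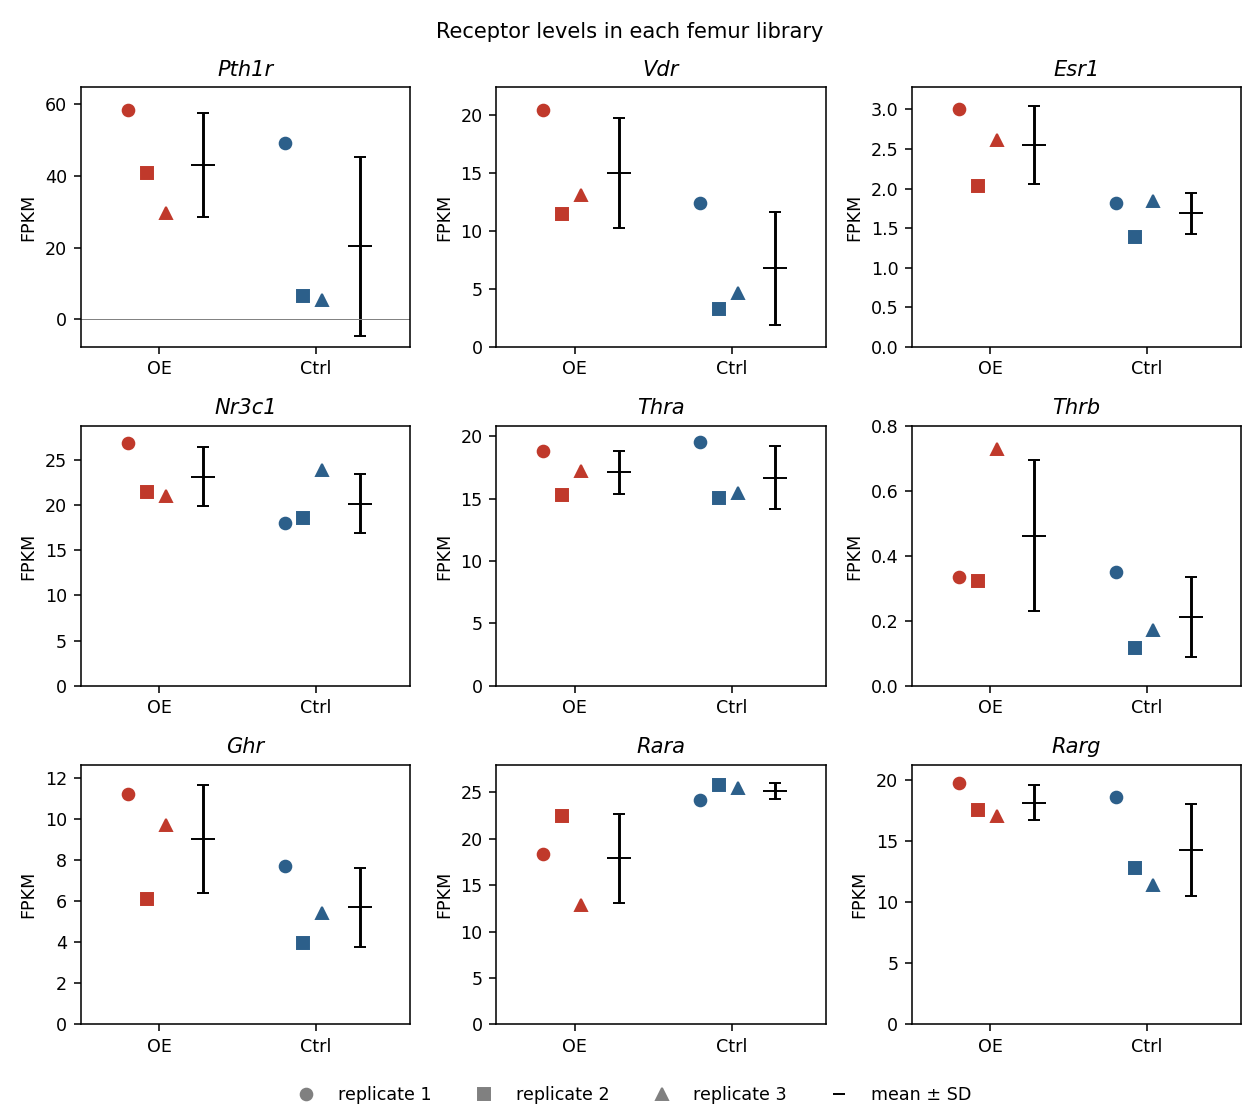
FPKM of each receptor in the 3 OE (red) and 3 Ctrl (blue) libraries, with marker shape for the replicate number and black bars for mean ± SD (n = 3); each panel has its own linear axis, and the Pth1r axis runs below 0 only to hold the SD bar. The library labelled Ctrl 1 (blue circle) lies near the OE points for Pth1r, Vdr and Rarg, while Ctrl 2 and Ctrl 3 lie low.

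A further arrangement set Ctrl 2 and Ctrl 3 apart. In Pth1r, Vdr, Thrb, Ghr and Rarg, Ctrl 2 and Ctrl 3 were both below each of the other 4 libraries. Among the 8 tested receptors 4 had this order, and among all tested genes 16.7% had it. The library labelled Ctrl 1 lay within the OE range in 5 receptors, below it in Esr1 and Nr3c1, and above it in Thra and Rara. Without that library, limma called 525 genes higher in OE, 4.37% of the 12017 tested, and 80 lower, 0.666%. Pth1r and Vdr were the 2 receptors called, both higher. That comparison leaves only Ctrl 2 and Ctrl 3 against OE, so the groups no longer overlap for any gene lowest in those 2. The library labelled Ctrl 1 was singled out on values of these same data, so these calls are not independent support. The osteoblast, muscle and chondrocyte marker sums were also lowest in Ctrl 2 and Ctrl 3, and their part in these differences was not tested.

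Pth1r, the receptor shared by parathyroid hormone and parathyroid hormone-related protein, was the most abundant of the 9, with a mean of 31.7 FPKM over the 6 libraries. It lies on chromosome 9, 110722085 to 110747145, minus strand (ENSMUSG00000032492), on GRCm38 as are all positions here. RefSeq (GRCm38.p6) lists 3 starts for it, 2 for Rarg and 4 for Rara, and some of their windows are shown. The 250 bases before each start are printed because Pth1r and Rarg varied together across libraries, so that the Rarg window is shown beside them. The Rara window is added for contrast, since Rara was the 1 receptor with a negative difference. Capitals mark a GC box (GGGCGG) or a nuclear receptor half-site (AGGTCA) on either strand.
Pth1r start 1, chr9:110747146-110747395, minus strand: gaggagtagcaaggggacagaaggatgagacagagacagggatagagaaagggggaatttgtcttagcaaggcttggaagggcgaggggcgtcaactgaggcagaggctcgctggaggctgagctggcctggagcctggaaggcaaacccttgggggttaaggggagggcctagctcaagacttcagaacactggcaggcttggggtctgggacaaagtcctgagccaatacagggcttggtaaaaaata
Pth1r start 2, chr9:110743687-110743936, minus strand: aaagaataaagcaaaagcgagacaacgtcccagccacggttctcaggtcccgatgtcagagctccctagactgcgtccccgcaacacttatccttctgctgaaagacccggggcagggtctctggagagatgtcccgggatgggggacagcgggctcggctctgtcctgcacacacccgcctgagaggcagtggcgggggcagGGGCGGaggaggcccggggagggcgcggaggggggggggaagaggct
Rarg start 1, chr15:102257523-102257772, minus strand: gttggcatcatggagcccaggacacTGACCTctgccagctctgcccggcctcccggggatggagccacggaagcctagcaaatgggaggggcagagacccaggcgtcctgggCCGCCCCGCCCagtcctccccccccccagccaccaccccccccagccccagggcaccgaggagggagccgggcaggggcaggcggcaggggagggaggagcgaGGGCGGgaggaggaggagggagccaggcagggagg
Rara start 1, chr11:98937446-98937695, plus strand: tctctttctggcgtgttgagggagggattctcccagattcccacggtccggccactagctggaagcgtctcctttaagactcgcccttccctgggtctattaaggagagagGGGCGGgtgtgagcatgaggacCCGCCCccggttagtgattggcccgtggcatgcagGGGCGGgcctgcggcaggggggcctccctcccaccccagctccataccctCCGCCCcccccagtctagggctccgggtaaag
The first Pth1r window held neither motif, the second held 1 GC box, and the third, not printed, held 4. The printed Rarg window held 3 GC boxes and 1 half-site, while that of the other Rarg start held neither motif. For Rara, the windows of starts 1 and 2, which overlap, each held 4 GC boxes, start 3 held none and start 4 held 1, and no Rara window held a half-site. Of all 32817 windows of 250 bases in the table, 32.7% held a GC box and 14% a half-site. G and C made up 56%, 65.6% and 70.4% of the 3 Pth1r windows, 74.4% and 52.4% of the Rarg windows and 58.8% to 65.2% of the Rara windows, against a median of 52.4% over all windows. Sequence matches of this kind describe the letters only. Of the 9 receptors, 7 had a window in the table.

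Pth1r stood at 58.5, 40.8 and 29.8 FPKM in the OE libraries and at 49.2, 6.45 and 5.52 FPKM in the Ctrl libraries. The library labelled Ctrl 1 was thus higher than OE 2 and OE 3, while the other Ctrl libraries were far below all 4, so the groups overlapped. The OE mean was 43.1 ± 14.5 FPKM and the Ctrl mean 20.4 ± 24.9 (SD, n = 3). The difference was 1.66 (SE 0.77) on the log2(FPKM + 1) scale, with a limma adjusted p of 0.554, and the exact two-sided permutation p was 0.3, where 3 against 3 libraries allow no p below 0.1. Without the library labelled Ctrl 1 the difference was 2.61 (SE 0.29) and the limma adjusted p 0.00793. The OE mean was 7.20 times the mean of Ctrl 2 and Ctrl 3, and 8.22 times that mean was reached in the library labelled Ctrl 1. Pth1r shares 95 exon bases, 3.25% of its exon length, with Myl3 on the opposite strand. Myl3, which encodes a myosin of slow muscle, had 22.8, 15.8 and 20.5 FPKM in the OE libraries and 11.2, 4.54 and 6.50 FPKM in the Ctrl libraries. Whether the authors' counting used strand is not given in the sources used here, so reads in the shared bases cannot be assigned.

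Pth1r followed the osteoblast markers across libraries more closely than any other of the 9 receptors. The mean log2(FPKM + 1) of the 9 osteoblast markers was 7.70, 7.30 and 6.88 in OE and 7.30, 4.25 and 4.13 in Ctrl. Its Pearson r with Pth1r over the 6 libraries was 0.996, given as a description because all 6 points share their libraries with both measures. The r of Pth1r was also 0.991 with periosteum and fibroblast, 0.984 with osteocyte, 0.974 with chondrocyte and 0.963 with osteoclast markers. It was 0.929 with skeletal muscle, -0.951 with T and NK cell and -0.156 with neutrophil markers. With the osteoblast marker level subtracted, the Pth1r level came to -1.80, -1.91 and -1.94 in OE and to -1.65, -1.35 and -1.42 in Ctrl. The spread from lowest to highest library was 3.19 for the level and 0.58 for the level relative to the markers. On that relative scale the 3 OE libraries were below the 3 Ctrl libraries, which is opposite in sign to the difference in level. The marker level spanned 3.57 between libraries, more than any receptor, and all 9 receptors had a lower OE mean on the relative scale, with differences OE minus Ctrl from -2.57 for Rara to -0.41 for Pth1r. The genes whose level was most like Pth1r over the 6 libraries were Pkdcc, a secreted tyrosine kinase needed for bone growth, Cpe, a carboxypeptidase, and Pcolce, an enhancer of procollagen processing, at r of 0.9989 to 0.9996. In all, 344 of 8716 genes with a mean of at least 5 FPKM had r over 0.95 with Pth1r.

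**Figure D2:**
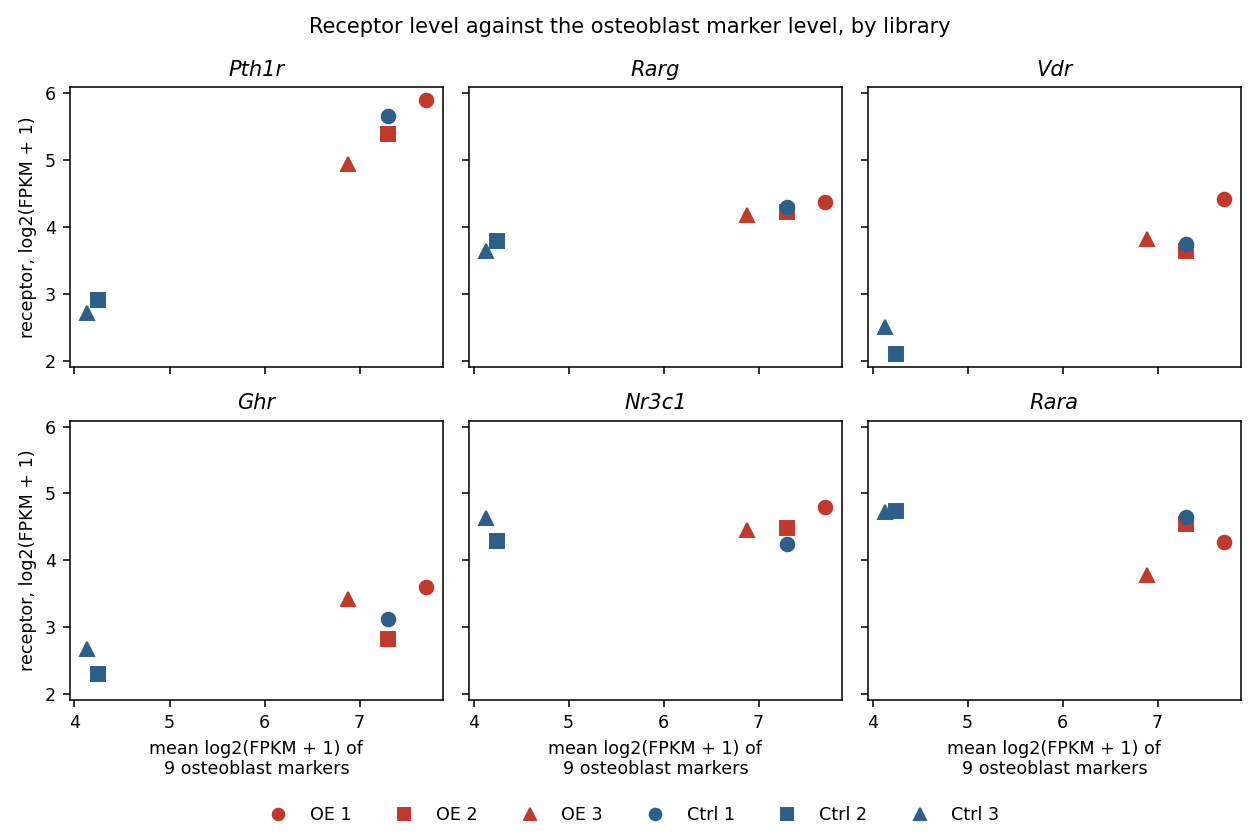
Level of 6 receptors, log2(FPKM + 1), against the mean log2(FPKM + 1) of 9 osteoblast markers, 1 point per library. Pth1r, Rarg and Vdr were lowest in Ctrl 2 and Ctrl 3, the 2 libraries with marker levels of 4.25 and 4.13, and Rara was lowest in OE 3.

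The genes around Pth1r were read from a list of 21, of which 18 were tested. Of these, 11 had a positive and 7 a negative difference, none was called, and the median difference was 0.13 against -0.04 for all genes. The ligand of the PTH family made in tissues, Pthlh, was below the filter, at 0.154 to 0.323 FPKM in OE and 0.0189 to 0.252 in Ctrl. Gnas, which encodes the stimulatory G protein that couples Pth1r to cyclic AMP, stood at 123, 103 and 109 FPKM in OE and at 125, 125 and 112 in Ctrl, with a difference of -0.11 (SE 0.15). Among the targets, Nr4a2, an orphan nuclear receptor that parathyroid hormone induces in osteoblasts, stood at 4.45, 2.48 and 2.53 FPKM in the OE libraries and at 2.26, 0.598 and 0.738 FPKM in the Ctrl libraries. All OE values were above all Ctrl values, and the difference was 0.96 (SE 0.33, limma adjusted p 0.554). Without the library labelled Ctrl 1, Nr4a2 was called, with a difference of 1.28 (limma adjusted p 0.0391). It was 1 of the 18 tested genes of the list, and 4.37% of all tested genes were called higher in that comparison. Arrb2, a beta-arrestin that ends receptor signalling, had the smallest unadjusted p of the list and a negative difference. It stood at 198, 224 and 129 FPKM in OE and at 314, 379 and 345 in Ctrl, with all OE values below, and differed by -0.94 (SE 0.24, limma adjusted p 0.554).

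Vdr, the nuclear receptor for active vitamin D, lies on chromosome 15, 97854425 to 97910630, minus strand (ENSMUSG00000022479). It stood at 20.4, 11.5 and 13.0 FPKM in the OE libraries and at 12.4, 3.28 and 4.64 FPKM in the Ctrl libraries. OE 1 was the highest, and the library labelled Ctrl 1 lay between OE 2 and OE 3. Averaged by group, OE held 15.0 ± 4.75 FPKM and Ctrl 6.76 ± 4.90 (SD, n = 3). The log2(FPKM + 1) difference was 1.18 (SE 0.43, limma adjusted p 0.554), with an exact two-sided permutation p of 0.2. Leaving out the library labelled Ctrl 1 gave 1.66 (SE 0.27) and a limma adjusted p of 0.0235. Relative to the osteoblast markers Vdr still spanned 2.02 between libraries, close to the 2.32 of its level, although its r with the marker level was 0.959. Its r was 0.981 with the osteocyte markers and 0.980 with the skeletal muscle markers, and their part in the Vdr values was not tested. Bmp3, S1pr3 and Ptprs had the pattern most like Vdr, at r of 0.998 to 0.999. Bmp3 encodes a bone morphogenetic protein found in bone matrix.

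In the vitamin D list, 9 of 17 genes were tested, of which 3 had a positive and 6 a negative difference. None was called, and the median was -0.20. Cyp27b1, the enzyme that activates vitamin D, was at or below 0.194 FPKM in every library, and Cyp24a1, which degrades the active form and is its best known target, was listed at 0 in 5 libraries and at 0.0209 in the library labelled Ctrl 1. The retinoid X receptors pair with Vdr on DNA. Rxra stood at 10.9, 8.73 and 10.7 FPKM in OE and at 9.13, 7.45 and 8.88 in Ctrl, with overlapping groups and a difference of 0.23 (SE 0.15). Rxrb stood at 34.2, 37.7 and 32.3 FPKM in OE and at 53.8, 44.3 and 45.0 in Ctrl. Every OE value of Rxrb was below every Ctrl value, and it differed by -0.44 (SE 0.14, limma adjusted p 0.554). Cd14, a monocyte surface protein that vitamin D induces, was also lower in all OE libraries, at 11.6, 14.4 and 6.21 FPKM against 19.3, 17.9 and 15.7, with a difference of -0.73 (SE 0.28, limma adjusted p 0.554). Without the library labelled Ctrl 1, 1 of the 9 tested genes of the list was called, and 4.37% of all tested genes were called higher. That gene was Spp1, which is also among the osteoblast markers, at 2.77 (limma adjusted p 0.0230).

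Esr1, which encodes oestrogen receptor alpha, lies on chromosome 10, 4611593 to 5005614, plus strand (ENSMUSG00000019768). Its level was low, at 3.004, 2.03 and 2.62 FPKM in the OE libraries and at 1.82, 1.39 and 1.85 FPKM in the Ctrl libraries. The groups did not overlap, but OE 2 and Ctrl 3 were separated by a narrow gap. Group means were 2.55 ± 0.489 FPKM for OE and 1.69 ± 0.257 for Ctrl (SD, n = 3). The difference was 0.40 (SE 0.18) in log2(FPKM + 1), with a limma adjusted p of 0.554 and an exact two-sided permutation p of 0.1, the lowest this design allows. Without the library labelled Ctrl 1 it was 0.44 (SE 0.19, limma adjusted p 0.345). Esr1 was thus little moved by that library, whose value lay between Ctrl 2 and Ctrl 3. Esr1 and Ghr varied together, with a descriptive r of 0.932 over 6 libraries. Chd3, Filip1l and Ttc3 were most like Esr1, at r of 0.990 to 0.993.

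Nr3c1, the glucocorticoid receptor, lies on chromosome 18, 39410545 to 39519421, minus strand (ENSMUSG00000024431), and was expressed evenly. It stood at 26.9, 21.5 and 21.02 FPKM in the OE libraries and at 18.0, 18.6 and 23.9 FPKM in the Ctrl libraries. Ctrl 3 was above OE 2 and OE 3, so the groups overlapped. The OE mean was 23.1 ± 3.25 FPKM and the Ctrl mean 20.2 ± 3.24 (SD, n = 3), a difference of 0.19 (SE 0.17) in log2(FPKM + 1) with a limma adjusted p of 0.677 and an exact two-sided permutation p of 0.3. It was 0.084 without OE 1, 0.31 without Ctrl 3, and 0.12 if the library labelled Ctrl 1 was left out. Its r with the osteoblast level was 0.159, the smallest in size of the 9. The genes most like Nr3c1 were Atp2b1, a calcium pump of the cell membrane, Dmtf1 and Cdc37l1, at r of 0.991 to 0.993.

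Of 23 genes on the steroid list, 21 had a row and 13 were tested. Of these, 5 had a positive and 8 a negative difference, none was called with or without the library labelled Ctrl 1, and the median was -0.07. Further steroid receptors were below the filter. Nr3c2, the mineralocorticoid receptor, ran from 0.146 to 0.335 FPKM, and Esr2, oestrogen receptor beta, did not exceed 0.0251 FPKM. Sex is not in the labels, and the Y-linked genes differed between libraries of the same group. Without the library labelled Ctrl 1, only OE 1 and OE 3 held more than traces of them. The part of sex in the Esr1 values, and in the differences without that library, was not tested. The enzyme Hsd11b1, which regenerates active glucocorticoid inside cells, stood at 70.3, 97.2 and 29.8 FPKM in OE and at 89.5, 95.3 and 78.2 in Ctrl, with OE 3 the lowest and a difference of -0.56 (SE 0.41). Fkbp5 and Tsc22d3 are glucocorticoid targets in many cell types. Fkbp5 differed by -0.27 (SE 0.23) and Tsc22d3 by 0.19 (SE 0.22), both with overlapping groups. Hsd17b4, an enzyme of peroxisomal fatty acid and steroid breakdown, had the smallest unadjusted p of the list, at -0.24 (SE 0.13, limma adjusted p 0.561), and was lower in all OE libraries.

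Thra, the main thyroid hormone receptor gene of bone, lies on chromosome 11, 98740638 to 98769006, plus strand (ENSMUSG00000058756). It stood at 18.8, 15.3 and 17.3 FPKM in the OE libraries and at 19.6, 15.0 and 15.5 FPKM in the Ctrl libraries. The library labelled Ctrl 1 was the highest and Ctrl 2 the lowest, so Ctrl spanned the whole OE range. Averaged by group, OE held 17.1 ± 1.75 FPKM and Ctrl 16.7 ± 2.50 (SD, n = 3). On the log2(FPKM + 1) scale the 0.04 between the groups was smaller than its SE of 0.16 (limma adjusted p 0.942, exact two-sided permutation p 0.9). It was -0.027 without OE 1 or without Ctrl 2, -0.0077 without Ctrl 3, 0.11 without OE 2, and 0.15 when the library labelled Ctrl 1 was left out. Thra shares 263 exon bases, 5.70% of its exon length, with the antisense gene Nr1d1, a clock-regulated nuclear receptor. Nr1d1 stood at 3.82, 5.61 and 5.48 FPKM in OE and at 4.63, 3.10 and 2.34 in Ctrl, and reads in the shared bases cannot be assigned without the strand setting. Among the receptors that passed the filter, Thra had the least common pattern, with 4 genes at r over 0.95, among them Trim47 at 0.976 and Igfbp3 at 0.953.

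Thrb, the other thyroid hormone receptor gene, lies on chromosome 14, 17660261 to 18038090, plus strand (ENSMUSG00000021779), and was the least abundant of the 9. It stood at 0.336, 0.323 and 0.730 FPKM in the OE libraries and at 0.349, 0.115 and 0.171 FPKM in the Ctrl libraries. OE 3 was the highest, and the library labelled Ctrl 1 was above OE 1 and OE 2. The difference in mean log2(FPKM + 1) was 0.27, with an exact two-sided permutation p of 0.3, and was 0.14 without OE 3. Thra was far above Thrb in FPKM in every library. In the thyroid hormone list 7 of 13 genes were tested, 4 with a positive and 3 with a negative difference, none called, with a median of 0.05. Dio2, the deiodinase that makes the active hormone inside cells, stood at 4.76, 4.32 and 1.92 FPKM in OE and at 3.86, 5.76 and 5.83 in Ctrl, and differed by -0.44 (SE 0.29). Hr, a corepressor of thyroid hormone receptors, differed by 0.41 (SE 0.24).

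Ghr, the growth hormone receptor, lies on chromosome 15, 3317760 to 3583492, minus strand (ENSMUSG00000055737). Its level was 11.2, 6.10 and 9.72 FPKM in OE and 7.71, 3.94 and 5.41 FPKM in Ctrl. Ctrl 2 and Ctrl 3 were the lowest, and the library labelled Ctrl 1 was above OE 2. Group means were 9.01 ± 2.62 FPKM for OE and 5.69 ± 1.90 for Ctrl (SD, n = 3), with a difference of 0.58 (SE 0.28) in log2(FPKM + 1), a limma adjusted p of 0.557 and an exact two-sided permutation p of 0.2. Without the library labelled Ctrl 1 the difference was 0.79 (SE 0.27, limma adjusted p 0.192), and without Ctrl 2 it was 0.39. The r of Ghr was 0.925 with the muscle marker level and 0.803 with the osteoblast level. Vdr, Esr1, Nr3c1, Thra and Thrb also had a higher r with muscle than with osteoblast markers, at 0.840 against 0.694 for Esr1 and 0.802 against 0.649 for Thrb. Muscle was not the closest list for all: the r of Thrb was 0.909 with B cell and 0.829 with adipocyte markers. For Thra it was 0.716 with muscle, 0.803 with osteocyte, 0.799 with adipocyte and 0.747 with osteoclast markers. One of the genes most like Ghr was Mybpc1, a myosin-binding protein of skeletal muscle, at r of 0.995, beside Plcg1 and Agrn. The part of muscle RNA in these values was not tested.

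On the growth hormone list 12 of 15 genes were tested, with 4 positive and 8 negative differences, none called, and a median of -0.16. Socs2, a feedback inhibitor that growth hormone induces through STAT5, was at 5.70, 4.38 and 6.59 FPKM in the OE libraries and at 3.61, 1.85 and 1.72 FPKM in the Ctrl libraries. All OE values were above all Ctrl values, as in 4.59% of all tested genes. Socs2 had the smallest unadjusted p of the list and differed by 0.98 (SE 0.25, limma adjusted p 0.554). Without the library labelled Ctrl 1 it differed by 1.22 (SE 0.19, limma adjusted p 0.0219). There it was the 1 gene called of the 12 tested, and 4.37% of all tested genes were called higher. Socs3, a related inhibitor induced by cytokines, had the opposite sign, at -0.51 (SE 0.31). It stood at 25.7, 23.9 and 10.7 FPKM in OE, below the 28.2, 26.7 and 26.6 of Ctrl. Cish and Socs1, also on the list, had negative differences too, of -0.26 (SE 0.18) and -0.04 (SE 0.19), with overlapping groups. The signalling genes Jak2 and Stat5b differed by 0.02 (SE 0.23) and -0.24 (SE 0.15). Igf1, the growth factor that growth hormone induces, was at 3.90 and 3.88 FPKM in OE 1 and OE 2 and at 2.84 to 3.99 in Ctrl, while OE 3 alone reached 13.5, and the difference was 0.64 (SE 0.43).

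Rara and Rarg encode retinoic acid receptors alpha and gamma, and their differences had opposite signs. Rara lies on chromosome 11, 98927818 to 98974942, plus strand (ENSMUSG00000037992). It stood at 18.4, 22.4 and 12.8 FPKM in the OE libraries and at 24.1, 25.7 and 25.5 FPKM in the Ctrl libraries. All OE values were below all Ctrl values, the Ctrl libraries were close to each other, and OE 3 was the lowest. The OE mean was 17.9 ± 4.82 FPKM and the Ctrl mean 25.1 ± 0.841 (SD, n = 3). The difference was -0.50 (SE 0.21) in log2(FPKM + 1), with an unadjusted p of 0.0457 and a limma adjusted p of 0.554; the exact two-sided permutation p was 0.1. Without the library labelled Ctrl 1 it was -0.53 (SE 0.24, limma adjusted p 0.358), and without OE 3 it shrank to -0.29 (limma adjusted p 0.628). Rara was the 1 receptor of the 9 with a negative r with the osteoblast level, -0.51, and its r with the neutrophil marker level was 0.923. The genes most like it were Zbtb42, Mapkapk3 and Actb, at r of 0.998 to 0.999. OE 3, the lowest library for Rara, also had the lowest neutrophil sum, 57945 FPKM, but the highest erythroid and B cell sums, 37978 and 412 FPKM. The r of Rara was -0.88 with B cell, -0.86 with marrow stroma and -0.48 with erythroid markers. It was 0.30 with T and NK cell markers and -0.31 with monocyte and macrophage markers. The part of any of these cells in the Rara values was not tested.

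Rarg lies on chromosome 15, 102234938 to 102257517, minus strand (ENSMUSG00000001288). It stood at 19.8, 17.6 and 17.1 FPKM in the OE libraries and at 18.6, 12.8 and 11.4 FPKM in the Ctrl libraries. Like Pth1r, it was lowest in Ctrl 2 and Ctrl 3, with the library labelled Ctrl 1 among the OE values. Averaged by group, OE held 18.1 ± 1.43 FPKM and Ctrl 14.3 ± 3.79 (SD, n = 3), a difference of 0.35 (SE 0.19) in log2(FPKM + 1), with a limma adjusted p of 0.563 and an exact two-sided permutation p of 0.3. Without the library labelled Ctrl 1 it was 0.54 (SE 0.15, limma adjusted p 0.123), and without Ctrl 3 it was 0.22 (limma adjusted p 0.713). Its descriptive r was 0.985 with the osteoblast level and 0.991 with Pth1r. It was also 0.978 with periosteum and fibroblast, 0.971 with osteocyte, 0.950 with osteoclast, 0.949 with chondrocyte and 0.907 with skeletal muscle markers. Rarg moved over a smaller range than Pth1r, 0.74 against 3.19 in log2(FPKM + 1). Rarg was most like Maged2, Smad6, an inhibitor of bone morphogenetic protein signalling, and Mmgt2, at r of 0.998 to 0.999.

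The third retinoic acid receptor, Rarb, was below the filter, at 0.426, 0.408 and 0.271 FPKM in OE and at 0.306, 0.103 and 0.129 in Ctrl. On the retinoid list 7 of 15 genes were tested, 4 with a positive and 3 with a negative difference, none called, with a median of 0.04. Rbp4, the plasma carrier of retinol, was at 5.88, 9.35 and 6.62 FPKM in the OE libraries and at 10.2, 0.910 and 0.412 FPKM in the Ctrl libraries. The library labelled Ctrl 1 was the highest of all. Without it Rbp4 was the 1 gene called of the 7 tested, and 4.37% of all tested genes were called higher. The Rbp4 difference was then 2.31 (limma adjusted p 0.00692) in place of 1.39 (limma adjusted p 0.561). Aldh1a3, an enzyme that makes retinoic acid, had a similar order, at 2.52, 1.52 and 1.20 FPKM in the OE libraries and at 1.81, 0.251 and 0.214 FPKM in the Ctrl libraries, and differed by 0.73 (SE 0.37). Aldh1a2, of the same family, differed by -0.27 (SE 0.39). Cyp26b1, which breaks retinoic acid down, was below the filter at 0.289 to 1.80 FPKM, and Crabp2, a carrier of retinoic acid in the cytoplasm, at 0.109 to 0.324.

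**Figure D3:**
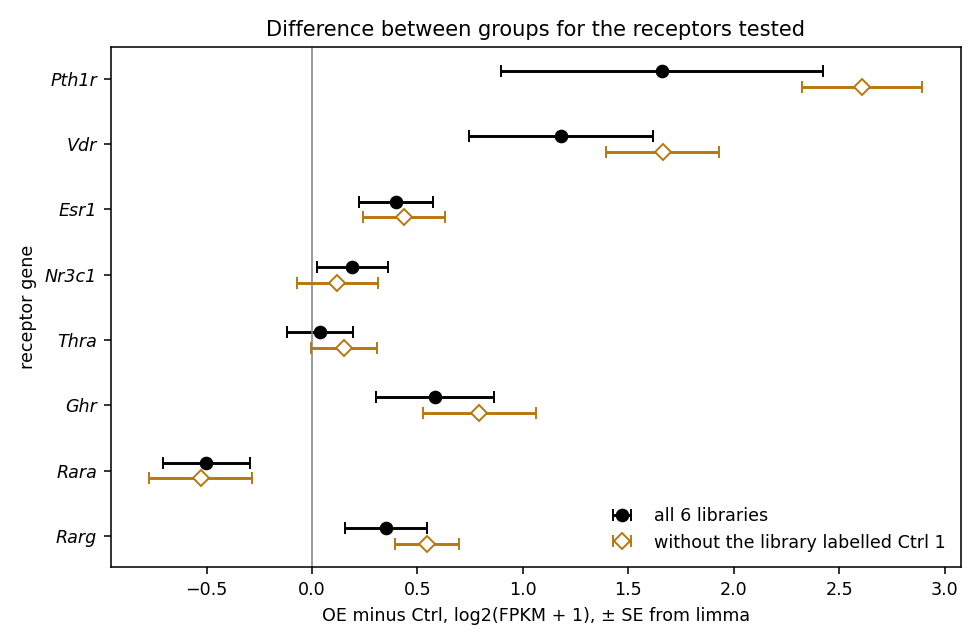
Difference OE minus Ctrl in log2(FPKM + 1) for the 8 receptors tested, with bars of ± 1 SE from limma; filled circles are all 6 libraries and open diamonds leave out the library labelled Ctrl 1. Pth1r moves from 1.66 to 2.61 and Vdr from 1.18 to 1.66, and Rara from -0.50 to -0.53.

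In order of mean FPKM over the 6 libraries, Pth1r at 31.7 was followed by Nr3c1 at 21.6, Rara at 21.5, Thra at 16.9, Rarg at 16.2, Vdr at 10.9, Ghr at 7.35, Esr1 at 2.12 and Thrb at 0.337. Neighbours from Pth1r down to Ghr had overlapping ranges over libraries. Ghr was above Esr1, and Esr1 above Thrb, in 6 of 6 libraries and without overlap. The order differed within libraries: Pth1r was the highest of the 9 in the OE libraries and the library labelled Ctrl 1, and Rara was the highest in Ctrl 2 and Ctrl 3, where Pth1r was below Nr3c1, Thra and Rarg as well.

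Of 41 other nuclear receptor genes on a fixed list, 15 were tested, 9 with a positive and 6 with a negative difference, none called, with a median of 0.19. The most abundant were Nr1h2, an oxysterol receptor, with a mean of 55.7 FPKM, Rxrb with 41.2 and Esrra, an orphan receptor related to the oestrogen receptors, with 21.2. Nr1d2, a clock-regulated repressor, had the smallest unadjusted p of them. It stood at 4.83, 5.28 and 8.08 FPKM in OE and at 3.45, 3.39 and 3.03 in Ctrl, with no overlap, and differed by 0.69 (SE 0.20, limma adjusted p 0.554). Among 17 coregulators 15 were tested, 9 positive and 6 negative, none called with or without the library labelled Ctrl 1, with a median of 0.06. Ncor1, a corepressor that holds unliganded thyroid hormone and retinoic acid receptors silent, differed by 0.10 (SE 0.20), and Hdac3, the deacetylase bound to it, by -0.24 (SE 0.14).

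**Figure D4:**
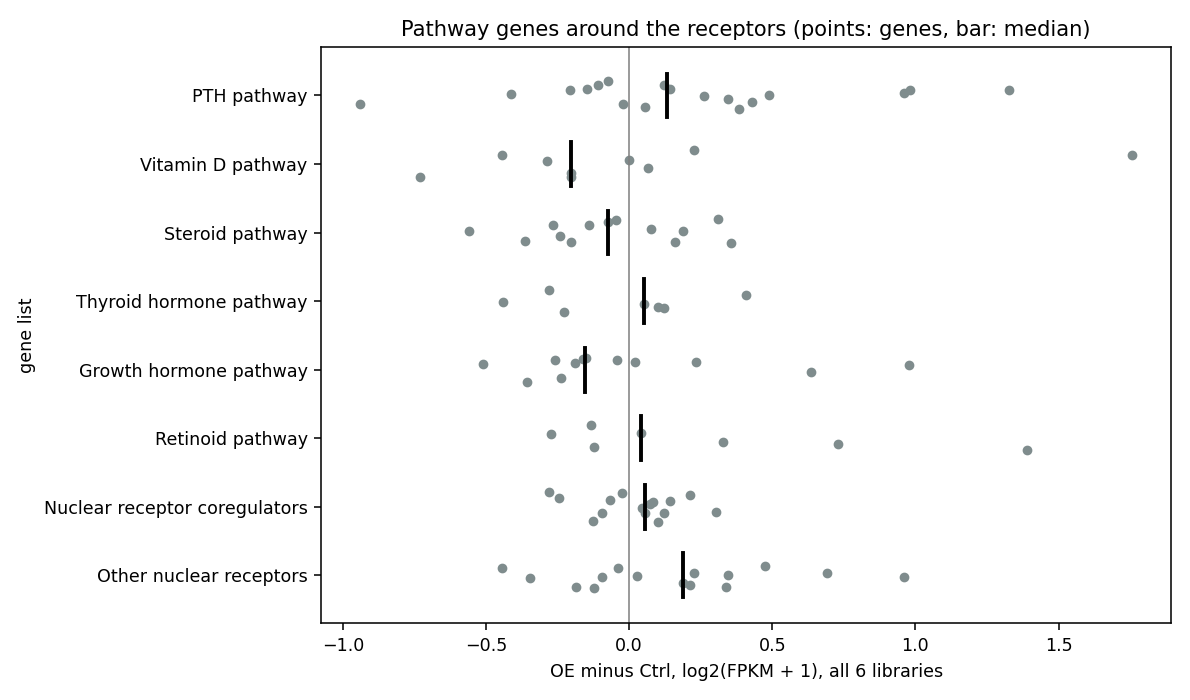
Difference OE minus Ctrl in log2(FPKM + 1), all 6 libraries, for the tested genes of the 8 lists around the receptors; each point is a gene and each bar the median of its list. Medians lie between -0.20 and 0.19, and single genes reach -0.94 (Arrb2) and 1.76 (Spp1).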

How the data were processed

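RNA was measured by paired-end sequencing of total RNA from 3 OE and 3 Ctrl femur samples, grouped by their titles. The submitters' processing notes name TopHat2, Cufflinks, DESeq and the build mm10. Versions, roles and strand setting, not given in the sources used here, can change the values. The authors deposited 1 FPKM value per gene and library, per the file headers, and no counts, so the planned count test did not apply. FPKM is scaled to the library's mapped fragments, so very abundant genes lower all others. Absolute depth is unknown, and no interval was made from it. An exact 0 can be a failed estimate.

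Identifiers were matched to symbols in GENCODE M21 on GRCm38: 21172 of 21606 Ensembl rows matched, and 1218 rows had no such identifier. The groups were compared by lmFit and eBayes with trend (limma 3.58.1, R 4.3.3) on log2(FPKM + 1), over 12177 genes that reached 1 FPKM in 3 or more libraries, adjusted by Benjamini-Hochberg at 0.05. A pseudocount of 1 understates changes of low genes. Each receptor also had an exact two-sided permutation test. Correlations are Pearson r on log2(FPKM + 1). Simulated data with known changes were used to test the limma step. Tables used Python 3.11.15 with pandas 2.3.3 and scipy 1.17.1.

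The receptors and gene lists were chosen with earlier results of these data known. Named genes are the receptors, Wnt7b, a fixed set of partners, ligands, enzymes and targets, the 2 genes of each list with the smallest unadjusted p, and the 3 genes most like each tested receptor. Some genes under this rule are not reported here. Ddx3y, Uty, Kdm5d, Eif2s3y, Spp1, Myl3, Nr1d1, Nr1h2, Esrra, Cish, Socs1 and Runx2 were named after their values were seen. Alternatives were a pseudocount of 0.1, no filter, a filter of 5 FPKM, trimmed-mean scaling, a total leaving out marrow and muscle markers, no trend, array weights, a replicate block, each library left out, and the library labelled Ctrl 1 and OE 3 left out together.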

Additional observations from a re-analysis of the deposited data

How the results depend on the processing

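Among 119 alternative values for the 8 tested receptors, 109 kept their direction and side of the threshold, 7 passed the threshold where the value with all 6 libraries did not, and 3 changed sign. The count of genes called, 0 with all 6 libraries, was 1394 of 12177 tested with array weights. It was 954 of 11474 tested without the library labelled Ctrl 1 and OE 3 together. When 1 library was left out the count ranged from 0 to 605. Only leaving out the library labelled Ctrl 1 gave calls, 605 of 12017 tested. These 3 settings thus called many genes besides the receptors. Pth1r and Vdr passed under those 3 settings, at limma adjusted p of 0.0370 for both with array weights and of 5.48e-04 and 0.0100 without the 2 libraries together. Ghr passed with array weights alone (limma adjusted p 0.0498). Over its alternatives Pth1r ran from 1.14 to 2.84 and Vdr from 0.84 to 1.83, with adjusted p up to 0.9997. Rara ran from -0.67 (without OE 2) to -0.29 (without OE 3) and passed under none. Thra ranged from -0.027 to 0.15 when 1 library was left out, and changed sign without OE 1, Ctrl 2 or Ctrl 3. Thrb, which had no test with all 6 libraries, stayed positive in its 11 alternatives and was 0.85 with a pseudocount of 0.1. The causes were not tested. Scaling moved the median of all genes by less than 0.1.

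With the replicate number as a replicate block, 0 genes were called, with 1170 higher and 627 lower at an unadjusted p under 0.05 against 502 and 497 without it. Whether the numbers pair the samples cannot be told from these values. Deviations of same-numbered libraries correlated at 0.44, 0.09 and 0.31, and those of differently numbered ones at -0.62 to 0.42. Not every library correlated best with its own number. Depth is unknown, which limits Thrb and the other genes under 1 FPKM most.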
